A study of Homo sapiens with 6 samples.

Results

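The genes described here are 58 genes of the MYC network and of ribosome biogenesis, chosen by symbol among the 58233 Ensembl identifiers of the count table. They were measured in OCI-AML2, an established human acute myeloid leukemia cell line. All 58 matched an identifier, and 57 passed the filter on low counts among 13028 tested genes. Polyadenylated RNA was sequenced from 3 libraries labelled IKZF1-ko, from CRISPR-derived cells in which IKZF1 was targeted, and from 3 libraries labelled NT control, from cells given a non-targeting control. IKZF1 encodes Ikaros, a transcription factor of the blood lineages, and the comparison asks which genes go with its targeting. Cells grew in RPMI medium with serum, and no drug is named for these libraries. The series design names 3 lines per group while the extraction protocol speaks of triplicates, and neither the guide nor whether a line is 1 clone is given. The p-values therefore describe the spread among these libraries, and that spread may be technical.

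MYC is a transcription factor that pairs with MAX and binds E-box sequences, of which CACGTG is the canonical form. The MXD proteins, MNT and MXI1 also pair with MAX and repress the same kind of site. Genes for making ribosomes are among the best known targets of MYC: RNA polymerase I and its factors transcribe ribosomal RNA, small nucleolar RNPs modify it, and assembly factors fold and cut it into the small and large subunits. ODC1 and SRM, enzymes of polyamine synthesis, are also classical MYC targets. In acute myeloid leukemia, MYC is commonly high and drives growth.

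The ribosome biogenesis genes differed more between individual libraries than between the genotype labels. In IKZF1-ko replicate 1 and NT control replicate 2, 47 of the 57 tested genes (82.5%) lay below all of the other 4 libraries. Among all tested genes the share was 31.5%. Another 7 (12.3%) lay above them, against 32.5% of all tested genes. These were MAX, the MAX-network repressors MXD1, MXD3 and MXD4, and NPM1, WDR75 and PPAN. The repressor MNT lay below them, and MYC mRNA did neither. Between the genotypes, no gene of the set passed the test on group alone, and neither did any other tested gene. With a term for the library set, SRM, EBNA1BP2, NOP2, NOLC1, PNO1, ODC1, NOP56, HEATR1 and DDX56 fell by 0.15 to 0.26 on the log2 scale in the libraries labelled IKZF1-ko and MXD1 rose by 0.28. That is 15.8% of members lower and 1.75% higher, against 6.62% and 6.93% of all tested genes. With a surrogate variable in place of that term, 0 of the 57 tested members passed, these 10 included, against 6.52% of all tested genes.

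Total counts ranged from 11300519 to 18214328 per library. IKZF1 mRNA was not lower in the libraries labelled IKZF1-ko, at 420.4, 426 and 436 CPM (TMM-scaled counts relative to the library total) in replicates 1, 2 and 3, against 331, 291 and 334 CPM in NT control. Every IKZF1-ko value lay above every NT control value, as for 5.28% of all tested genes. Gene-level counts cannot reveal an edit, so each direction below is that of the libraries as labelled. The myeloid markers CD33, MPO, SPI1, PTPRC, LYZ and CSF3R summed to 1152 to 1287 CPM in IKZF1-ko and 1168 to 1329 CPM in NT control. The lymphoid markers CD3E, CD2 and MS4A1 and the epithelial markers EPCAM and KRT19 were at 0 in every library. The T cell list, with counts for 2 of 4 markers, summed to 0.067 to 0.22 CPM in IKZF1-ko and 0.55 to 1.05 CPM in NT control, levels that did not overlap and whose part in the results was not tested. The fibroblast and epithelial list, with counts for 2 of 4, summed to 0.055 to 0.24 CPM in IKZF1-ko and 0 to 0.34 CPM in NT control. Summed B cell markers were at 12.4 to 16.5 CPM in IKZF1-ko and 11.8 to 13.7 CPM in NT control. On the first principal component, with 67.6% of the variance, IKZF1-ko replicate 1 and NT control replicate 2 stood apart from the other 4 libraries; these 2 form the smaller library set and the other 4 the larger one. No label names what they share. CPM values are shares of each library, so fewer cells of a type and less RNA per cell cannot be told apart, and total RNA per cell was not measured.

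Canonical E-boxes in the promoters are shown first, because CACGTG is the sequence that MYC and its antagonists recognise. RefSeq promoters on GRCh38.p14, from 250 bases before to 50 bases after each start, were given for 51 of the 58 genes. The palindrome CACGTG, which reads the same on both strands, was found in 22 of these 51 genes (43.1%), in 12.8% of the 9798 tested genes with a promoter and in 8.77% of all 27305 genes of the promoter table. The variant CACGCG, searched with its reverse complement CGCGTG, was found in 35.3% of the 51 genes and 22.9% of the tested genes. A match is a description of the sequence and not evidence of a bound site. The capitals mark CACGTG, each line runs 5′ to 3′ on the strand of the gene, and the first lines are genes that fell with the library-set term.
SRM, chr1:11060175-11060254, minus strand, outside annotated genes, E-box 199 bases before the start: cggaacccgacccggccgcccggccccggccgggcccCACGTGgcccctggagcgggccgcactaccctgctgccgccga
ODC1, chr2:10448013-10448078, minus strand, intronic, E-box 29 bases before the downstream RefSeq start: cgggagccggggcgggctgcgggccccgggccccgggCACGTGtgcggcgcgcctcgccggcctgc
PNO1, chr2:68157885-68157914, plus strand, exon of PNO1 and AC017083.3: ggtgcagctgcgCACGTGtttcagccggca
NOP2, chr12:6568242-6568268, minus strand, exonic: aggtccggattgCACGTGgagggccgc
EBNA1BP2, chr1:43172790-43172819, minus strand, exon of EBNA1BP2 and CFAP57, 237 bases before the RefSeq start: gatattgttggcCACGTGggatcgaagacc
UTP20, chr12:101280058-101280104, plus strand, E-box 10 bases before the start: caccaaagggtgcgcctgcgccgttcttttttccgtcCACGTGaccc
RRP9, chr3:51941892-51941921, minus strand, exonic, E-box from 5 bases before the start: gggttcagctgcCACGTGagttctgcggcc
FBL, chr19:39846356-39846385, minus strand, exonic: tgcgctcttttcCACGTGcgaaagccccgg
MXD4, chr4:2262305-2262359, minus strand, E-box 238 bases before the start: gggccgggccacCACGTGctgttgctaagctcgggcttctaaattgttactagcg
MNT, chr17:2401211-2401290, minus strand, E-box 193 bases before the start: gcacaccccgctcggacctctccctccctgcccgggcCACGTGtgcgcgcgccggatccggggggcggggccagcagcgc

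MYC (ENSG00000136997, GRCh38 chromosome 8, 127735434 to 127741434) was the most abundant member of its network. It was present at 943, 993 and 989.96 CPM in IKZF1-ko replicates 1, 2 and 3, and at 904, 1055 and 883 CPM in NT control replicates 1, 2 and 3. The groups overlapped, with both the highest and the lowest value in NT control. MYC did not pass on group alone (log2 fold change 0.04, SE 0.11, edgeR adjusted p = 1.00) or with the library-set term (0.05, adjusted p = 0.65). The within-set values had opposite signs: the difference was 0.15 (adjusted p = 0.010) in the 4 libraries, and IKZF1-ko replicate 1 lay 0.16 below NT control replicate 2 on the log2 scale. Whether the genotype difference of MYC depends on the set was not tested. MYCN, the neuronal paralog, had 0 counts in all 6 libraries, which allows up to 0.265 CPM in the shallowest library, counting error only.

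MAX (chromosome 14, 65006174 to 65102695), the shared partner, was at 85.8, 83.0 and 82.9 CPM in IKZF1-ko against 83.6, 92.2 and 78.6 CPM in NT control (log2 fold change -0.01 with the library-set term, adjusted p = 0.91). Relative to exon length, MYC stood at 325 ± 9.36 CPM per kb in IKZF1-ko and 316 ± 31.3 CPM per kb in NT control, and MAX at 18.9 ± 0.37 CPM per kb in IKZF1-ko and 19.1 ± 1.55 CPM per kb in NT control (SD, n = 3 each). The repressor partners were lower still. In IKZF1-ko, MXD4 was at 4.37 ± 1.64, MNT at 4.02 ± 0.52, MXD1 at 3.38 ± 1.72 and MXD3 at 3.03 ± 0.77 CPM per kb, and the 4 did not differ beyond their spread. In NT control the same genes were at 3.82 ± 1.59, 3.84 ± 0.42, 2.79 ± 1.42 and 2.93 ± 0.38 CPM per kb.

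MXD1 (chromosome 2, 69897688 to 69942945), a repressor that rises as myeloid cells mature, was at 34.0, 15.2 and 15.1 CPM in IKZF1-ko replicates 1, 2 and 3, against 12.7, 28.1 and 12.3 CPM in NT control replicates 1, 2 and 3. The spread between libraries of a genotype was therefore larger than the difference between genotypes. It was the one member called higher with the library-set term (log2 fold change 0.28, SE 0.088, edgeR adjusted p = 0.046). Over the 16 alternatives run its adjusted p was 0.026 to 0.43, and it passed in 5 of them. MXD1 shares exon positions with SNRNP27 on its strand. MXD4 (chromosome 4, 2247432 to 2262294) followed the same libraries, at 44.2, 23.9 and 24.3 CPM in IKZF1-ko and 21.5, 39.9 and 19.5 CPM in NT control, and did not pass (0.20, adjusted p = 0.097).

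MXD3 had 20.2, 12.7 and 14.1 CPM in IKZF1-ko and 13.3, 17.2 and 14.8 CPM in NT control (0.04, adjusted p = 0.845). MNT, the ubiquitous MAX-binding repressor, went the other way across libraries, with 29.96, 38.6 and 36.8 CPM in IKZF1-ko against 36.4, 29.4 and 34.9 CPM in NT control (0.06, adjusted p = 0.61). MXI1, a relative of the MXD genes from the pathway list, had 86.3, 48.2 and 45.5 CPM in IKZF1-ko against 39.1, 82.9 and 36.9 CPM in NT control, with an adjusted p of 0.0505. In both genotypes the library that stood apart had the highest MXD1, MXD3, MXD4 and MXI1 and the lowest MNT.

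**Figure D1:**
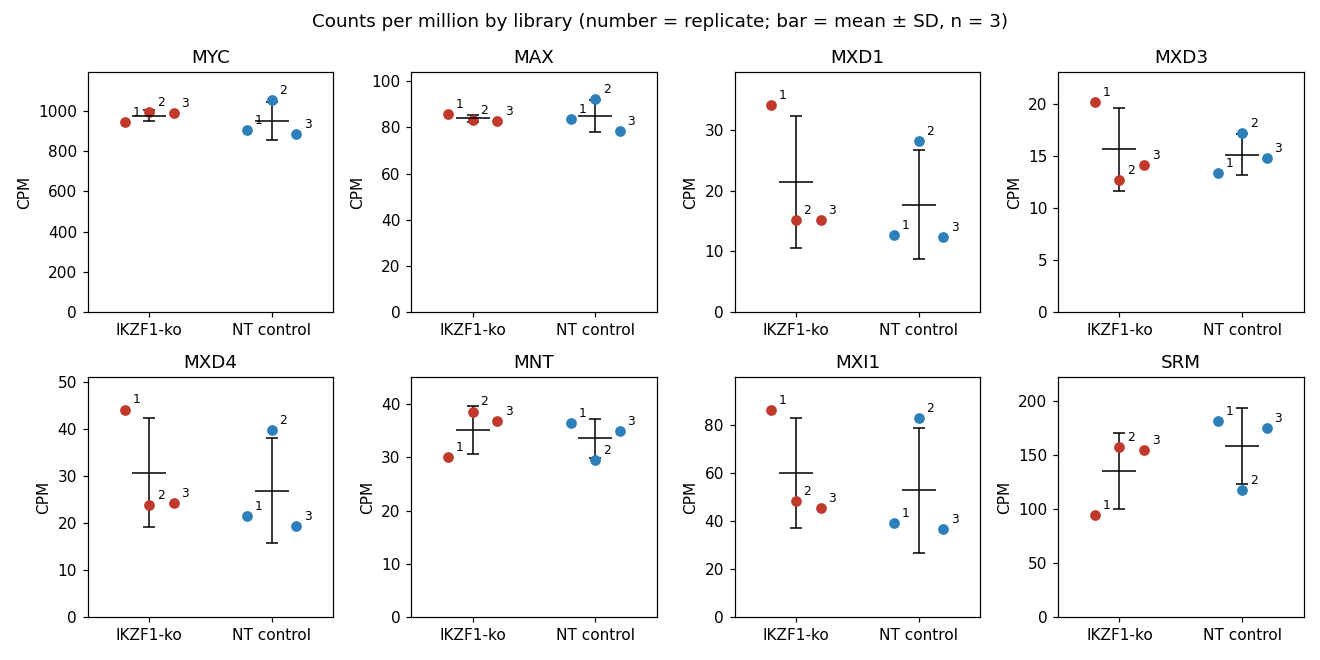
CPM (vertical axes, from 0) of the 6 tested MYC network genes, MXI1 and SRM in each library. Numbers are replicates, and bars are mean ± SD (n = 3). MXD1, MXD4 and MXI1 are highest, and SRM lowest, in IKZF1-ko replicate 1 and NT control replicate 2, whereas MYC lies between 883 and 1055 CPM in all 6 libraries.

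The contrast between libraries was then followed through the machinery they encode. It is given as a description with no test, because the libraries were set apart by the same counts. IKZF1-ko replicate 1 lay below replicates 2 and 3 for 50 of 57 members, with a median difference of -0.60 on the log2 scale. NT control replicate 2 lay below replicates 1 and 3 for 48 of 57, with a median of -0.50. Over all 13028 tested genes those medians were 0.003 and 0.02. Both libraries were below all of the other 4 for 47 members (82.5%) and above them for 7 (12.3%), against 31.5% below and 32.5% above, or 63.9% in either direction, among all tested genes. The 7 were MAX, MXD1, MXD3, MXD4, NPM1, WDR75 and PPAN, and MYC, NPM3 and WDR74 were in neither class. The difference in IKZF1-ko and that in NT control, which use separate libraries, went together across the 57 members (Pearson r 0.95) and across all tested genes (0.82). Genes are not independent replicates, and each difference rests on 1 library against 2.

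**Figure D2:**
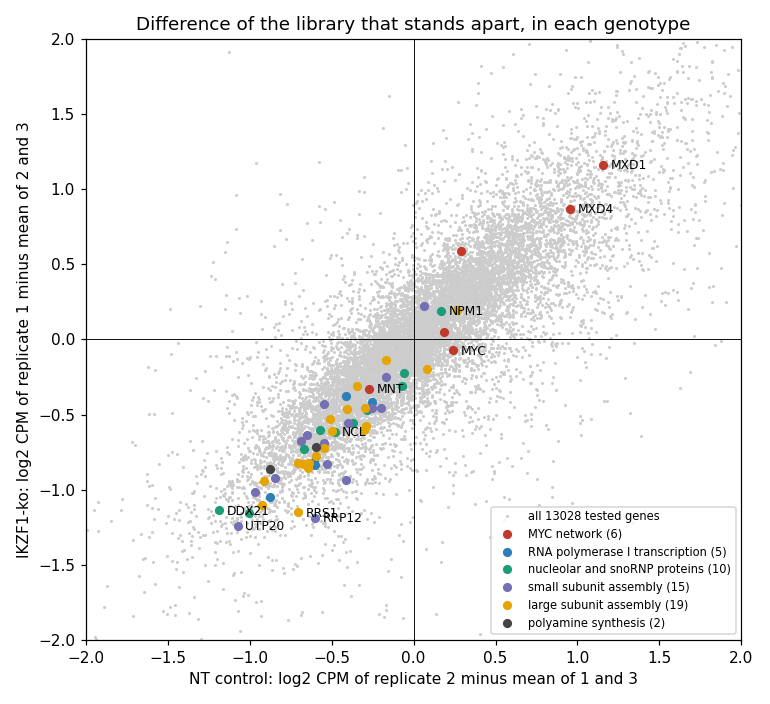
Each point is a gene. The horizontal axis is the log2 CPM of NT control replicate 2 minus the mean of replicates 1 and 3, and the vertical axis that of IKZF1-ko replicate 1 minus the mean of replicates 2 and 3. Grey points are all tested genes, of which 167 fall outside the axes. The biogenesis genes lie mostly in the lower left quadrant, down to -1.24 for UTP20, and MXD1 (1.16 on both axes) and MXD4 in the upper right.

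The 5 RNA polymerase I members were all below the other 4 libraries in both libraries that stood apart. Of 10 other RNA polymerase I genes, 4 were below and 3 above (40% and 30%, against 31.5% and 32.5% of all tested genes), with medians of -0.10 in IKZF1-ko and 0.003 in NT control. POLR1A (chromosome 2, 86020216 to 86106155), the largest subunit of the enzyme, was at 73.9, 156 and 149.6 CPM in IKZF1-ko replicates 1, 2 and 3, against 162, 88.3 and 163 CPM in NT control replicates 1, 2 and 3. UBTF, which binds the ribosomal RNA gene promoter, was at 145, 259 and 253 CPM in IKZF1-ko against 273, 174 and 259 CPM in NT control. The libraries that stood apart had the lowest value of each genotype for both genes. RRN3, which brings the polymerase to that promoter, moved less than these, at 77.4, 100.3 and 101 CPM in IKZF1-ko and 99.9, 77.9 and 108 CPM in NT control. The differences of the 5 genes in this role ran from -1.05 to -0.38 in IKZF1-ko and from -0.88 to -0.25 in NT control.

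Among nucleolar and small nucleolar RNP proteins the size of the difference varied widely. DDX21 (chromosome 10, 68956128 to 68985073), an RNA helicase of the nucleolus, was at 270.4, 582 and 609 CPM in IKZF1-ko against 620.1, 280.01 and 656 CPM in NT control. NOLC1, a chaperone of small nucleolar RNPs, was at 218, 485 and 489 CPM in IKZF1-ko against 539, 266 and 528 CPM in NT control. The difference of the library that stood apart was -1.14 in IKZF1-ko and -1.19 in NT control for DDX21, and -1.16 in IKZF1-ko and -1.004 in NT control for NOLC1. NCL, the abundant RNA-binding protein nucleolin, was at 1179, 1838 and 1776 CPM in IKZF1-ko and 1807, 1314 and 1865 CPM in NT control. FBL, the methyltransferase fibrillarin, moved by -0.31 in IKZF1-ko and -0.07 in NT control. NPM1 (chromosome 5, 171387116 to 171411137), nucleophosmin, went the other way, at 2353, 2088 and 2033 CPM in IKZF1-ko and 1914, 2221 and 2044 CPM in NT control. Its value is uncertain, since 45 annotated pseudogenes carry its name and can share its reads.

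Small subunit assembly genes had median differences of -0.67 in IKZF1-ko and -0.55 in NT control. UTP20 (chromosome 12, 101280109 to 101386616), a large processome scaffold, was at 27.9, 62.3 and 70.2 CPM in IKZF1-ko and 68.6, 32.0 and 66.6 CPM in NT control. RRP12, an export and maturation factor, was at 70.9, 166 and 157 CPM in IKZF1-ko and 159, 105 and 159 CPM in NT control. For RRP12 the difference was -1.19 in IKZF1-ko and -0.60 in NT control, and for UTP20 it was -1.24 in IKZF1-ko and -1.07 in NT control. Of 15 genes in the role, 14 were below the other 4 libraries in both, and WDR75 was above. That is 93.3% and 6.67%, against 31.5% and 32.5% of all tested genes.

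Large subunit assembly genes were below the other 4 libraries in both for 17 of 19 (89.5%), against 31.5% of all tested genes. RRS1 differed by -1.15 in IKZF1-ko and -0.71 in NT control, EBNA1BP2 by -1.10 in IKZF1-ko and -0.93 in NT control, and NIP7 by -0.94 in IKZF1-ko and -0.91 in NT control. The PES1, BOP1 and WDR12 proteins form a complex needed for large subunit maturation, and their differences were -0.60, -0.82 and -0.58 in IKZF1-ko and -0.31, -0.64 and -0.29 in NT control. GNL3, nucleostemin, moved least of the 17 in IKZF1-ko, by -0.14. Both polyamine enzymes were lower, ODC1 by -0.86 in IKZF1-ko and -0.87 in NT control, and SRM by -0.72 in IKZF1-ko and -0.60 in NT control.

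**Figure D3:**
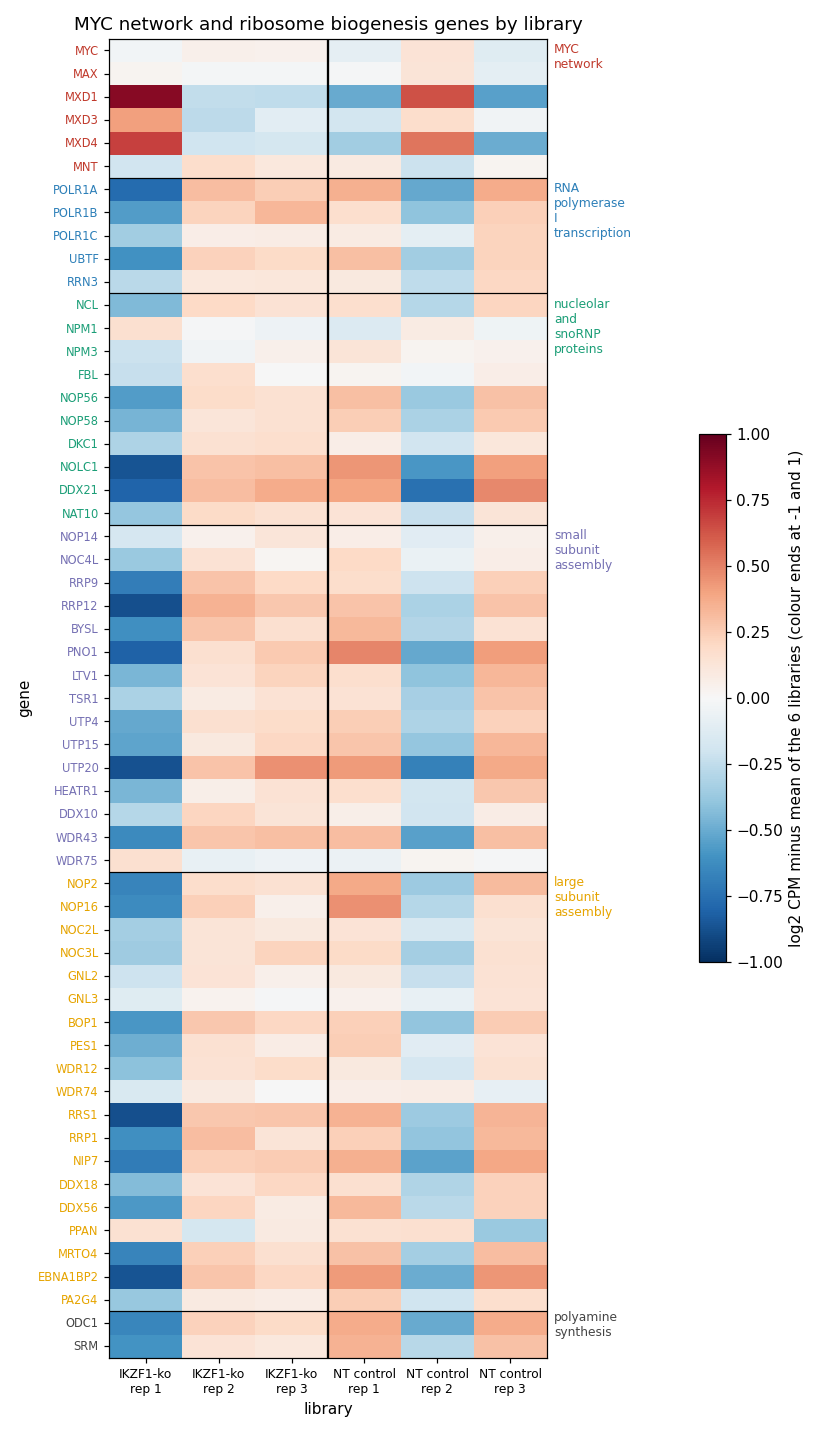
Rows are the 57 tested genes by role (coloured names) and columns the 6 libraries, IKZF1-ko left of the line and NT control right. Colour is log2 CPM minus the mean of the 6 libraries for that gene. IKZF1-ko replicate 1 and NT control replicate 2 are blue for most biogenesis genes and red for MXD1 and MXD4.

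Genes of the hypoxia response, listed as a readout of culture state, moved with these libraries in the opposite sense. Of 14 tested, 13 (92.9%) were above the other 4 libraries in both IKZF1-ko replicate 1 and NT control replicate 2. Among all tested genes the share was 32.5%. The libraries were set apart by the same counts, so this too is a description. The mean level of the list, relative to the 6 libraries, was 0.95, -0.31 and -0.33 on the log2 scale in IKZF1-ko replicates 1, 2 and 3 and -0.59, 0.80 and -0.53 in NT control replicates 1, 2 and 3. For the 57 members it was -0.39, 0.14 and 0.13 in IKZF1-ko and 0.18, -0.23 and 0.17 in NT control. The part of the hypoxia response in the biogenesis values was not tested.

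Genes with and without a canonical E-box both took part. Of the 20 biogenesis and polyamine genes with CACGTG in a promoter window, all 20 were below the other 4 libraries in both libraries that stood apart, with a median difference of -0.77 in IKZF1-ko and -0.57 in NT control. Of the 25 without it, 20 were below, with medians of -0.47 in IKZF1-ko and -0.41 in NT control. Among all tested genes, 31.5% were below. With the library-set term, the median genotype difference on the log2 scale was -0.095 with CACGTG and -0.107 without. Genes called lower in that fit were 5 of the 20 and 3 of the 25, against 6.62% of all tested genes. Whether the E-box goes with these differences was not tested.

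The genotype comparison used edgeR's quasi-likelihood test. On group alone, 0 of 57 members and 0% of the 13028 genes were called at an adjusted p of 0.05, and 0 members had an unadjusted p below 0.05, against 3.5% of all genes (2.29% higher and 1.21% lower). DESeq2 and limma-voom on group alone also called 0 members. The median log2 fold change of the members was -0.07, against 0.001 for all genes. It turned to 0.074 without IKZF1-ko replicate 1 and was -0.23 without NT control replicate 2. No member had groups that did not overlap, against 9.35% of all tested genes (5.28% higher and 4.07% lower in IKZF1-ko).

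When the fit held both group and library set, the spread between replicates was 4.83% as a coefficient of variation, against 22.2% on group alone. In this fit, 9 of the 57 members were lower and 1 higher at an adjusted p of 0.05. That is 15.8% lower and 1.75% higher, against 6.62% and 6.93% of all tested genes, or 17.5% in either direction against 13.5%. The median of the members was -0.08, with 46 of 57 below 0, against 0.002 over all genes. The count of lower members was 2 without IKZF1-ko replicate 3 and 3 without NT control replicate 1. Lower calls over all genes also dropped, from 862 to 347 and 418 in these fits. The sets were defined from the same counts, so these p-values take them as known.

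SRM (ENSG00000116649, chromosome 1, 11054584 to 11060024), spermidine synthase, had the lowest adjusted p. It was at 94.7, 157 and 155 CPM in IKZF1-ko replicates 1, 2 and 3, against 182, 118 and 175 CPM in NT control replicates 1, 2 and 3. Each IKZF1-ko library was below the NT control libraries of its own set, although the groups overlapped. The log2 fold change was -0.23 (SE 0.049, edgeR adjusted p = 0.0043). ODC1 (chromosome 2, 10439968 to 10448504), ornithine decarboxylase, was at 164, 304 and 294 CPM in IKZF1-ko against 333, 182 and 334 CPM in NT control and fell by 0.15 (SE 0.045, adjusted p = 0.029).

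EBNA1BP2 (chromosome 1, 43164175 to 43270936), NOP2 (chromosome 12, 6556863 to 6568691) and DDX56 were the large subunit genes that fell. EBNA1BP2 was at 66.8, 147 and 140.4 CPM in IKZF1-ko against 163, 86.2 and 165 CPM in NT control (log2 fold change -0.24, SE 0.052, adjusted p = 0.0048). NOP2, a methyltransferase of large subunit RNA, was at 55.0, 98.6 and 96.7 CPM in IKZF1-ko against 113, 67.8 and 109 CPM in NT control (-0.22, SE 0.053, adjusted p = 0.010). DDX56, an RNA helicase, was at 63.2, 109 and 99.6 CPM in IKZF1-ko against 118, 78.1 and 111 CPM in NT control (-0.18, adjusted p = 0.044). MRTO4 lay just outside the threshold (-0.17, adjusted p = 0.0505). The other 15 large subunit genes ran from -0.22 for NOP16 to 0.03 for PPAN.

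PNO1 (chromosome 2, 68157844 to 68176238) and HEATR1 (chromosome 1, 236549005 to 236604504) were the small subunit genes that fell. PNO1, which acts in the last maturation steps of small subunit RNA, was at 17.9, 35.2 and 37.7 CPM in IKZF1-ko against 44.4, 22.02 and 42.1 CPM in NT control (-0.26, SE 0.073, adjusted p = 0.025). HEATR1, a processome scaffold, was at 150.5, 215 and 228 CPM in IKZF1-ko against 233, 182 and 250.2 CPM in NT control (-0.17, SE 0.052, adjusted p = 0.036). UTP4 (-0.11, adjusted p = 0.19) and RRP12 (-0.16, adjusted p = 0.23) did not pass.

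NOLC1 (chromosome 10, 102152176 to 102163871) and NOP56 (chromosome 20, 2652145 to 2658393) were the nucleolar genes that fell. NOLC1 had a log2 fold change of -0.18 (SE 0.046, adjusted p = 0.016). NOP56, a core protein of box C/D RNPs, was at 172, 288 and 281 CPM in IKZF1-ko against 313, 196 and 311 CPM in NT control (-0.15, SE 0.045, adjusted p = 0.035), and small nucleolar RNA genes share its exon positions. NOP58 (-0.13, adjusted p = 0.082) and NPM3 (-0.13, adjusted p = 0.12) did not pass. No RNA polymerase I gene among the members passed, with POLR1A at -0.14 (adjusted p = 0.087), POLR1C at -0.14 (0.16), UBTF at -0.12 (0.14) and RRN3 at -0.03 (0.73).

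**Figure D4:**
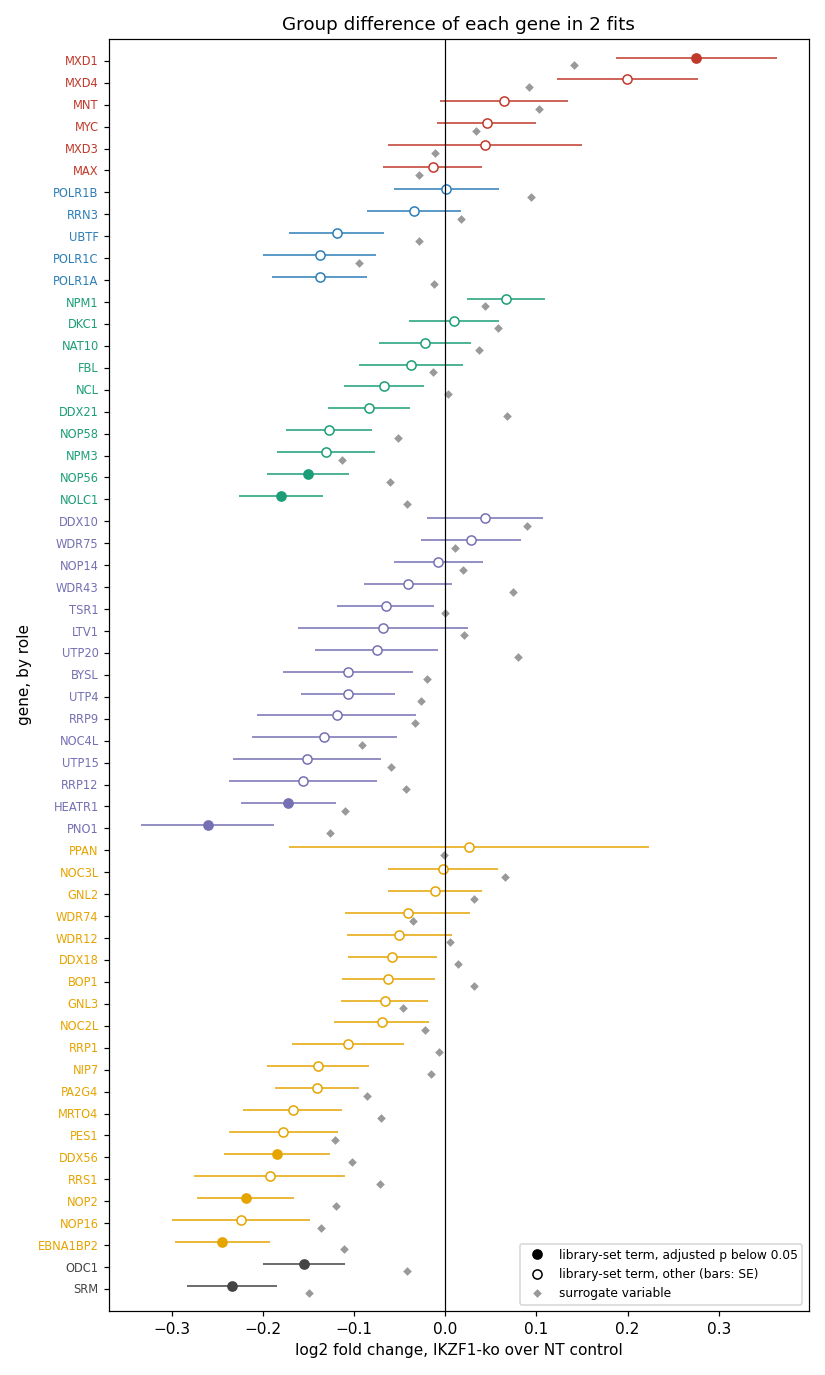
Log2 fold change of IKZF1-ko over NT control for each tested gene, by role (coloured names). Circles are the fit with the library-set term, with SE bars, filled where the adjusted p is below 0.05. Grey diamonds are the fit with a surrogate variable in its place. The 9 filled circles left of 0 run from -0.26 (PNO1) to -0.15, and the surrogate variable fit places all 9 closer to 0.

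The genotypes were then compared inside each set. In the larger set alone, with 2 libraries a group, edgeR called 7 members lower and 1 higher (12.3% and 1.75%, against 7.1% and 7.64% of the 12951 genes tested there). The 7 were SRM, EBNA1BP2, ODC1, NOP2, NOLC1, PNO1 and NOP56, and the higher one was MYC. All 7 were among those called lower with the library-set term, a fit that includes these same libraries. Depth differed there, with 18214328 and 16751839 counts in IKZF1-ko and 11699047 and 11300519 in NT control, and its part was not tested. Of the 57 members, 39 were lower in IKZF1-ko in this set (median -0.05). In the other set, IKZF1-ko replicate 1 was below NT control replicate 2 for 49 of 57 (median -0.18), a difference of 1 library against 1 with no test. The 10 members called with the library-set term had the same sign in both sets. They were picked by a fit on these same libraries, so the shared sign is no separate support. Among all 57 members, 35 were lower in both sets and 4 higher in both. Among the 13028 tested genes, 4053 were lower in both and 4155 higher in both.

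With 1 surrogate variable in place of the set, 0 members were called, against 6.52% of all genes (3.8% higher and 2.72% lower), and the lowest adjusted p of a member was 0.16. The median was -0.02, against 0.006 over all genes. SRM stood at -0.15 (adjusted p = 0.16), EBNA1BP2 at -0.11 (0.38), NOP2 at -0.12 (0.31), ODC1 at -0.04 (0.72) and MXD1 at 0.14 (0.43). The surrogate variable is itself estimated from the counts.

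Other genes of the same pathways, from 7 lists of related functions, moved both ways. Of 108 tested, 9 were lower and 4 higher with the library-set term (8.33% and 3.7%), with a median of -0.06, against 6.62% lower and 6.93% higher among all tested genes. In either direction that is 12% of the lists, against 13.5% of all tested genes. Among other small nucleolar RNP genes, 3 of 7 fell. They were NHP2 (64.2, 95.4 and 90.5 CPM in IKZF1-ko against 105, 83.8 and 107 CPM in NT control, log2 fold change -0.25, adjusted p = 0.0061), GAR1 (-0.31, adjusted p = 0.0080), both of H/ACA RNPs, and SNU13 (-0.21, adjusted p = 0.023). Other small subunit genes had 2 of 30 lower, RRP7A (-0.25, adjusted p = 0.0090) and NOL6 (-0.19, adjusted p = 0.015), and 0 higher. The 6.67% lower is near the 6.62% of all tested genes.

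Other large subunit genes had 3 of 28 higher and 0 lower (10.7% and 0%, against 6.93% and 6.62% of all tested genes). NOP53 was at 409.9, 315 and 296 CPM in IKZF1-ko against 254, 382 and 252 CPM in NT control (0.21, adjusted p = 0.0082). NMD3, the export adaptor of the large subunit, and RSL1D1 rose by 0.17 (adjusted p = 0.028) and 0.15 (adjusted p = 0.032). Of 10 other RNA polymerase I genes, POLR1G fell (-0.30, adjusted p = 0.0065) and POLR1D rose (0.17, adjusted p = 0.028). Of 12 RNA exosome genes and of 6 other MAX and MLX network genes, 0 passed, with EXOSC4 (-0.21, adjusted p = 0.065) nearest in the first list.

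Of 15 nucleotide and polyamine synthesis genes, 3 fell and 0 rose (20% and 0%, against 6.62% and 6.93% of all tested genes). NME1 (chromosome 17), a nucleoside diphosphate kinase, was at 20.5, 39.9 and 38.1 CPM in IKZF1-ko against 51.9, 29.7 and 52.9 CPM in NT control (log2 fold change -0.46, SE 0.068, adjusted p = 2.75e-04). It was the one pathway gene of the 108 that passed with the surrogate variable (-0.34, adjusted p = 0.013). CTPS1, which makes CTP, fell by 0.30 (adjusted p = 8.95e-04), and OAZ1, the antizyme that turns over ODC1 protein, fell by 0.27 (adjusted p = 0.00565). With the library-set term, 6 of 14 hypoxia genes were higher and 0 lower (42.9% and 0%, against 6.93% and 6.62% of all tested genes). Among them were P4HA1 (0.34), VEGFA (0.41) and ALDOC (0.36). With the surrogate variable, 1 of the 14 was higher and 0 lower (7.14% and 0%, against 3.8% and 2.72% of all tested genes). The median log2 fold change of the list was 0.02 in that fit, against 0.19 with the library-set term. The part of the hypoxia genes in these genotype differences was not tested.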

How the data were processed

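The authors deposited whole-number read counts per Ensembl gene, unscaled. The submitters' processing notes name Trimmomatic, STAR and GRCh38. Per the labels' protocols the library kit was stranded, while counter, strand setting and annotation release were not given in the sources used here. In GENCODE release 29, 16 of the 58 genes share exon positions with a gene on their strand, 18 only with one on the opposite strand, and 13 have named pseudogenes, so these values are uncertain.

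Members and lists were chosen with earlier results of these data known. Columns were matched by library name and groups by sample title, with 0 columns of other samples. After filterByExpr (13028 genes), edgeR 4.0.16 (R 4.3.3) ran two-sided quasi-likelihood tests with TMM scaling and Benjamini-Hochberg adjustment over all tested genes (threshold 0.05). There were 4 fits: group alone, with library set (sign of the first principal component), larger set alone, and with 1 surrogate variable (sva 3.50.0). The SE was taken as the absolute log2 fold change over the root of F. Log2 CPM used a prior count of 2, and levels per kb the union of annotated exons.

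Alternatives were other scalings (RLE, upper quartile, library size), other filters (none, or 1 CPM in 3 libraries), DESeq2 1.42.0, limma-voom (limma 3.58.1), a replicate block and leaving out each library. The fits were tested on simulated data. Named genes are IKZF1, the MYC network, up to 4 members per other role and up to 3 genes per pathway list by lowest p with the library-set term. Members named for their difference between libraries, as nearest or widest of a role, or for their promoter were chosen after their values were seen. Promoters are RefSeq's. Figures used matplotlib 3.10.9.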

Additional observations from a re-analysis of the deposited data

How the results depend on the processing

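On group alone, 0 genes were called under each scaling, with the stricter filter and without each library in turn. edgeR called 8 genes when no filter on low counts was used. With the usual filter, DESeq2 called 71 and limma-voom 1. No alternative on group alone called a member. Without IKZF1-ko replicate 1 the median of the members reversed to 0.074, and without NT control replicate 2 it was -0.23. With the library-set term, the 1765 calls over all genes became 1159 with DESeq2, 2942 with the replicate block and 850 with a surrogate variable, and 811 to 1943 with each library left out in turn. The lowest counts came without IKZF1-ko replicate 3 (811) and without NT control replicate 1 (948). Members called lower, 9 with the term, became 19 with the replicate block and 0 with a surrogate variable. They were 2 to 8 with a library left out, 2 without IKZF1-ko replicate 3 and 3 without NT control replicate 1. Over all genes, lower calls were 862 with the term, 1483 with the replicate block and 355 with a surrogate variable. With a library left out they were 347 to 923, with 347 and 418 in the fits without those 2 libraries. The replicate block beside the library-set term fits nearly as many terms as there are libraries. Little is then left to estimate the spread, so its counts are less certain. Members called higher became 0 with RLE scaling, without a filter on low counts, with DESeq2 and with a surrogate variable. With a library left out they were 0 to 1, and MXD1 passed in none of those fits. The 1 was MYC, without IKZF1-ko replicate 1 or without NT control replicate 2. Over all genes, higher calls were 464 to 1020 with a library left out, against 903 with the term. The cause was not tested.

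The libraries that stood apart bear different replicate numbers, 1 in IKZF1-ko and 2 in NT control. Deviations of same-numbered libraries from their group means correlated at -0.66, -0.69 and 0.59. These signs follow the library sets, so they do not test a pairing by replicate number. The replicate block is given only among the alternatives. The SRM and EBNA1BP2 falls passed in 15 of 16 alternatives each, NOP2 and NOLC1 in 13 each, and HEATR1 and DDX56 in 8 each. The alternatives are not independent. Without IKZF1-ko replicate 1 or NT control replicate 2, the library-set term absorbs the 1 library left in the smaller set. Both alternatives then nearly repeat the fit of the larger set alone (SRM -0.20 in each), so these counts overstate the support. SRM ran from -0.26 to -0.15 and EBNA1BP2 from -0.28 to -0.11 over them, and MYC from 0.004 to 0.15. PPAN, at about 4 CPM, had the fewest counts of the tested members.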
